A study of Homo sapiens with 12 samples.

Results

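Secretoglobins and other proteins that luminal epithelial cells secrete were followed across the 4 groups of an RNA-sequencing experiment in ZR-75-1, an oestrogen receptor-positive human breast cancer cell line. The genes were the 8 rows of the count table named *SCGB2A2*, *SCGB2A1*, *SCGB1D2*, *PIP*, *BPIFB1*, *MGP*, *LYZ* and *PGLYRP2*, out of 60612 rows with a symbol. They were chosen by protein family and, for some of them, on how strongly their counts had changed in these same libraries, so their levels and changes are a description, and no test is offered in their support. Cells carried the non-targeting guide RNA sgControl or had *RB1*, which encodes the retinoblastoma protein Rb, knocked out with CRISPR–Cas9. Each genotype received 500 nM abemaciclib, which blocks the CDK4 and CDK6 kinases, or an equal volume of the solvent DMSO for 5 days, and every group of the 4 had 3 replicates. The study's methods describe knockout lines expanded from sorted single cells, and how many clones were sequenced is not stated in the sources used here. A difference between genotypes therefore cannot be told apart from a difference between clones.

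Libraries held 39907318 to 81636393 counts. The targeted gene, *RB1*, had 29 to 63 raw counts in the 6 knockout libraries and at least 2090 in each sgControl library. All 10 luminal markers, among them *KRT8*, *GATA3* and *ESR1*, had a mean of at least 100 normalized counts in every group, where a normalized count is the raw count divided by the size factor of its library. Mitochondrial genes took 2.82% to 3.99% of counts in untreated and 7.22% to 8.53% in treated sgControl cells, and 3.78% to 4.13% and 5.44% to 7.39% in knockout cells. This share rose with treatment in both genotypes, and its part in the values below was not tested. Counts of a bulk culture cannot separate fewer cells that express a gene from less RNA per cell.

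Secretoglobins are small, disulphide-linked dimeric proteins that glandular and airway epithelia release into their secretions. SCGB2A2, or mammaglobin A, is largely restricted to mammary epithelium, is used as a marker of breast origin, and forms a complex with SCGB1D2, also called lipophilin B. The other genes encode a glycoprotein of apocrine secretions (PIP), proteins that bind or cut bacterial products (BPIFB1, LYZ and PGLYRP2) and a matrix protein that inhibits calcification (MGP). Several are responsive to steroid hormones in breast cells, such as *PIP* to androgen.

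The 3 secretoglobin genes lie within one short stretch of chromosome 11 on the plus strand (GRCh38, GENCODE release 44). *SCGB2A1* spans chr11:62208673-62213943, *SCGB1D2* chr11:62242239-62244812 and *SCGB2A2* chr11:62270158-62273160. Because *SCGB2A2* and *SCGB2A1* are close paralogues, their coding sequences in GENCODE release 44 are shown to make clear how far reads could be told apart. They shared 202 of 279 aligned bases, or 72.4%, and the longest run common to both was 29 bases, from base 8 of each, set in capitals.
SCGB2A2 coding sequence: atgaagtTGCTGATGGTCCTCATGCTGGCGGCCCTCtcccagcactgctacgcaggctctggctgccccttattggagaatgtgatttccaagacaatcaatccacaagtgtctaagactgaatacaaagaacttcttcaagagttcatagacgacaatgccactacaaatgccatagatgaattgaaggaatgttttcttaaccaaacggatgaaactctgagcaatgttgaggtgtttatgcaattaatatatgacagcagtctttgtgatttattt
SCGB2A1 coding sequence: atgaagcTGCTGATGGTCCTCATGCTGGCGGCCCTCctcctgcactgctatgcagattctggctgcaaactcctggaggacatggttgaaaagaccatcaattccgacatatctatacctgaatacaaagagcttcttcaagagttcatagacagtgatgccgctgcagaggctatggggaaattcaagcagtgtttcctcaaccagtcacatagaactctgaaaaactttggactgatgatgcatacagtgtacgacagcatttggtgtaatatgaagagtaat
Over whole transcripts the identity was 75.0%. *SCGB1D2* was more distant, with 64.3% identity to *SCGB2A2* and 64.1% to *SCGB2A1* over the aligned coding bases.

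Promoters of the 3 genes are shown because the genes are neighbours and because 2 of them, *SCGB2A2* and *SCGB1D2*, had the most similar profiles among the secretoglobins. Each window runs from 250 bases before to 50 after the RefSeq start on GRCh38.p14, read along the gene. Capitals mark matches on either strand to 4 of the motifs searched: the core oestrogen receptor motif GGTCA, the forkhead motif TGTTTAC, the AP-1 motif TGACTCA and the TATA variant AATAAATA.
SCGB2A2, chr11:62269908-62270207, plus strand: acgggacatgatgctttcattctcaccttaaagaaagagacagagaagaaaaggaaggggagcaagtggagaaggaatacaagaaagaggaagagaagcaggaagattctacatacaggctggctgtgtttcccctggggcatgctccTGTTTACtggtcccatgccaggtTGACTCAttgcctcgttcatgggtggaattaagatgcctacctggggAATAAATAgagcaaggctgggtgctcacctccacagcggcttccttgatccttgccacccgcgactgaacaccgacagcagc
SCGB2A1, chr11:62208423-62208722, plus strand: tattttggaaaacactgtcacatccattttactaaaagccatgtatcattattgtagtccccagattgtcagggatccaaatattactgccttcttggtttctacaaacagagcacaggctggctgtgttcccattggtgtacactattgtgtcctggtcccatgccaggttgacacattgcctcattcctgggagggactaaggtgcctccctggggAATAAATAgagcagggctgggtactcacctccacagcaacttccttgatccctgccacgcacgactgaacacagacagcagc
SCGB1D2, chr11:62241989-62242288, plus strand: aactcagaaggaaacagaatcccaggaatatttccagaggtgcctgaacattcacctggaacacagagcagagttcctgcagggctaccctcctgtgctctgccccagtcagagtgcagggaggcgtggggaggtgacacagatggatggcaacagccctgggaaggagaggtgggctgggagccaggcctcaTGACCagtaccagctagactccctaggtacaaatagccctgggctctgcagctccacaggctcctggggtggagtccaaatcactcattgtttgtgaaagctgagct
*SCGB2A2* and *SCGB2A1* both held AATAAATA 32 bases before the start, a match found in 2.05% of 35116 RefSeq promoter windows of the same length. The *SCGB2A2* window also held TGTTTAC, found in 3.42% of windows, and TGACTCA, found in 4.95%, neither of which was matched in the window of its paralogue, although the aligned windows were 72.1% identical. *SCGB1D2* held 1 GGTCA match, on the minus strand 57 bases before the start, and such matches occurred in 37.4% of windows. These are matches of letters only.

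*SCGB2A2* was the most abundant of the 3 secretoglobins in every library, and its largest fall was in knockout cells given abemaciclib. In DMSO it had 14072, 10264 and 8688 normalized counts in the sgControl libraries and 2847, 2996 and 2831 in the knockout libraries. After abemaciclib the sgControl values were 9908, 8471 and 10008, and the knockout values 251.4, 225.3 and 203.8. The sgControl groups overlapped, whereas each knockout group lay wholly below both of them and the knockout groups did not overlap each other. In sgControl cells the log2 fold change of abemaciclib against DMSO was −0.22 ± 0.14 (SE, n = 3 per group; 95% interval −0.48 to 0.05). In knockout cells *SCGB2A2* fell by 3.67 ± 0.15 on the log2 scale, 12.8-fold. The knockout was already 3.81-fold lower than sgControl in DMSO and was 41.8-fold lower in abemaciclib.

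*SCGB1D2*, whose product pairs with mammaglobin A, followed a like course at a lower level. Its normalized counts in DMSO were 1030, 730.7 and 633.7 in sgControl and 233.6, 225.9 and 220.5 in knockout cells. With abemaciclib they were 946.2, 852.8 and 868.6 in sgControl and 43.0, 69.5 and 52.5 in knockout cells. Again the sgControl groups overlapped and the knockout groups lay below them, apart from each other. The log2 fold change was 0.16 ± 0.16 in sgControl cells (95% interval −0.15 to 0.47), and in knockout cells *SCGB1D2* fell by 2.04 ± 0.20 on the log2 scale, or 4.11-fold.

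For both genes the sgControl response turned on replicates 1 and 3 of the DMSO group, which stood at the top and the bottom of it. Without replicate 3 the *SCGB2A2* value was −0.36 (DESeq2 adjusted p = 0.0033), and without replicate 1 the *SCGB1D2* value was 0.38 (adjusted p = 0.0012), each then past the threshold of 0.05. Total-count size factors also carried *SCGB2A2* past it, at −0.34.

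*SCGB2A1*, or mammaglobin B, was the least abundant and moved differently. It had 168.5, 121.6 and 94.5 normalized counts in sgControl cells given DMSO, and 171.3, 222.3 and 252.8 in abemaciclib. Knockout libraries held 47.8, 49.6 and 62.5 in DMSO and 37.4, 51.6 and 37.3 in abemaciclib. The sgControl groups were separated by a small gap and the knockout groups overlapped. *SCGB2A1* rose 1.69-fold in sgControl cells (log2 0.76 ± 0.23), and the log2 fold change in knockout cells was −0.34 ± 0.28, with a 95% interval of −0.89 to 0.21. Knockout was 2.39-fold lower than sgControl in DMSO and 5.13-fold lower in abemaciclib.

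The ratios among the 3 genes show that they did not move by equal amounts. Per kilobase of canonical transcript, *SCGB2A2* stood at 12.4 ± 0.19 times *SCGB1D2* in sgControl cells in DMSO (SD, n = 3). This level ratio was 9.57 ± 0.73 in sgControl cells in abemaciclib, 11.5 ± 0.49 in knockout cells in DMSO and 3.89 ± 1.22 in knockout cells in abemaciclib. Against *SCGB2A1* the ratio was 89.0 ± 4.76, 46.4 ± 11.3, 56.6 ± 8.74 and 5.67 ± 1.21 in the same order of groups. For both ratios the knockout libraries in abemaciclib lay below every other library.

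**Figure D1:**
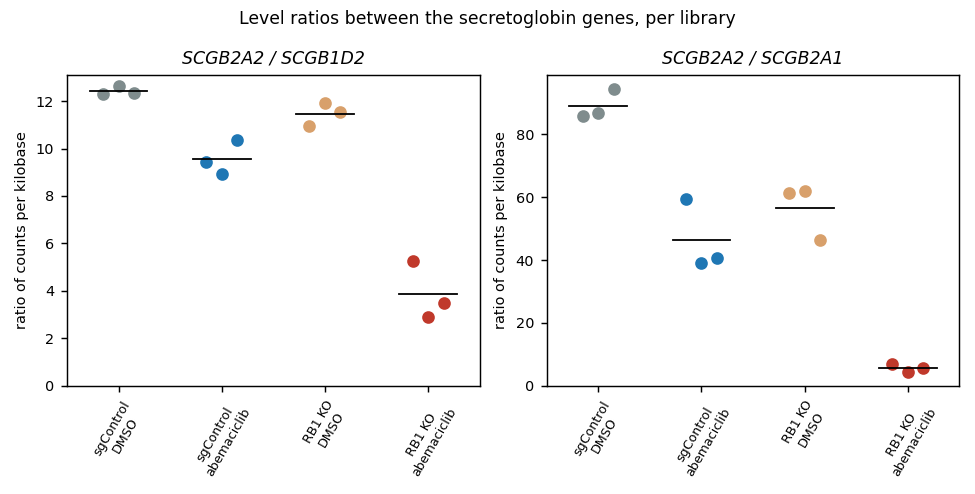
Ratio of *SCGB2A2* to *SCGB1D2* (left) and to *SCGB2A1* (right) in each library, both as normalized counts per kilobase of canonical transcript on a linear axis from 0, with a line at the mean of 3 replicates. Knockout libraries in abemaciclib reach at most 5.25 on the left and 6.91 on the right, while no other library is below 8.93 and 39.2.

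*PIP* encodes prolactin-induced protein, a secreted glycoprotein of apocrine and lacrimal glands. The gene is at chr7:143132077-143139739, plus strand. Its 3 sgControl libraries in DMSO held 304.4, 182.4 and 164.4 normalized counts, and those in abemaciclib 3816, 3520 and 3280. The knockout libraries held 72.4, 81.5 and 71.6 in DMSO and 39.6, 53.7 and 58.5 in abemaciclib. The sgControl libraries in abemaciclib, at 3280 or above, were far from those in DMSO, at 304.4 or below, and both knockout groups were below all sgControl libraries.

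*PIP* rose 16.4-fold in sgControl cells (log2 4.03 ± 0.17, SE, n = 3 per group). In knockout cells the log2 fold change was −0.57 ± 0.23, which passed the threshold in the main model (adjusted p = 0.0456) but not with edgeR (adjusted p = 0.117), with a filter on low counts (0.0984), with only the groups compared (0.0877) or with the replicate block (0.128). It also failed when any 1 of 8 libraries was left out, all of the sgControl group in abemaciclib and of the knockout group in DMSO and replicates 1 and 2 of the knockout group in abemaciclib, with adjusted p from 0.0517 to 0.209. The knockout level was 2.87-fold lower than that of sgControl in DMSO and 69.6-fold lower in abemaciclib. In the *PIP* promoter window GGTCA lay 123 bases before the start, the STAT motif TTCNNNGAA 144 before it and the androgen and glucocorticoid receptor motif AGAACA 198 before it. Of all windows, 7.66% held the STAT motif and 14.8% held AGAACA.

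*BPIFB1* encodes a secreted protein of the BPI fold family, made mainly by airway and glandular epithelia, that binds bacterial lipopolysaccharide. It occupies chr20:33273480-33309871 on the plus strand. Before treatment its sgControl libraries held 357.5, 379.9 and 317.5 normalized counts and its knockout libraries 187.2, 225.9 and 226.2. Under abemaciclib the sgControl values were 18566, 19904 and 19497, and the knockout values 86.1, 82.1 and 79.7. The 4 groups were separate from one another, with the sgControl group in abemaciclib at the top and the knockout group in abemaciclib at the bottom.

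*BPIFB1* rose 55.2-fold in sgControl cells (log2 5.79 ± 0.08) and fell by 1.38 ± 0.13 on the log2 scale in knockout cells, 2.59-fold. The gap between genotypes thus went from 1.63-fold in DMSO to 234.1-fold in abemaciclib. Of its family, 9 of the other 11 BPI fold genes had any counts, and *BPIFB2* was the one called. *BPIFB2* had 27.9, 13.2 and 16.4 normalized counts in sgControl cells given DMSO and 214.5, 224.9 and 209.7 in abemaciclib, a rise of 3.52 ± 0.28 on the log2 scale. No knockout library held more than 2 raw counts of it, and its interaction was −2.68 ± 1.30 (adjusted p = 0.0868).

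*LYZ* and *PGLYRP2* encode enzymes that cut peptidoglycan, the polymer of bacterial cell walls: lysozyme cleaves its sugar chains, and peptidoglycan recognition protein 2 removes its peptide side chains. *LYZ* (chr12:69348381-69354234, plus strand) had 33.5, 16.7 and 22.7 normalized counts in sgControl cells given DMSO and 437.5, 534.0 and 544.4 in abemaciclib. The knockout libraries held 16.4, 39.7 and 19.3 in DMSO and 6.79, 22.1 and 16.1 in abemaciclib. The sgControl libraries in abemaciclib stood apart, and the other 3 groups overlapped.

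*LYZ* rose 20.9-fold in sgControl cells (log2 4.39 ± 0.27). The log2 fold change was −0.75 ± 0.36 in knockout cells (adjusted p = 0.107), and it passed without replicate 1 of the knockout group in DMSO (−0.96, adjusted p = 0.0422) or without replicate 2 of the knockout group in abemaciclib (−1.13, adjusted p = 0.0357). Between genotypes in DMSO it was 0.08 ± 0.33, with a 95% interval of −0.56 to 0.72, and *LYZ* was the one of the 8 genes not called lower in untreated knockout cells. In abemaciclib the knockout was 33.4-fold lower.

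*PGLYRP2* (chr19:15468645-15498956, minus strand) was close to the limit of detection except in one group. It had 14.0, 20.3 and 11.3 normalized counts in sgControl cells given DMSO and 2105, 1576 and 1647 in abemaciclib. The knockout libraries in DMSO held 0, 0 and 3 raw counts, and those in abemaciclib 6, 5 and 11. The sgControl group in abemaciclib was far above the rest, and every knockout library was below every sgControl library in abemaciclib.

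In sgControl cells *PGLYRP2* rose 119.5-fold (log2 6.90 ± 0.24), the largest response of the 8 genes in that genotype. With only 3 counts in the untreated knockout group, folds against it are given as ratios of summed counts with exact 95% intervals, which cover counting error only. The ratio of sgControl to knockout in DMSO, from 56 and 3 counts, was 12.4 (4.03 to 61.9), and that of abemaciclib to DMSO in knockout cells, from 22 and 3 counts, was 6.54 (1.97 to 34.1). The latter rise was past the DESeq2 threshold in the main model and not with the replicate block (adjusted p = 0.0532) or without any of 3 knockout libraries, replicates 1 and 2 in DMSO and replicate 3 in abemaciclib (adjusted p 0.0523, 0.0774 and 0.0508). In abemaciclib the knockout was 228.1-fold lower than sgControl.

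The *PGLYRP2* promoter window is shown because it held 5 matches to GGTCA, more than any of the other 5 genes with a window.
PGLYRP2, chr19:15479452-15479751, minus strand: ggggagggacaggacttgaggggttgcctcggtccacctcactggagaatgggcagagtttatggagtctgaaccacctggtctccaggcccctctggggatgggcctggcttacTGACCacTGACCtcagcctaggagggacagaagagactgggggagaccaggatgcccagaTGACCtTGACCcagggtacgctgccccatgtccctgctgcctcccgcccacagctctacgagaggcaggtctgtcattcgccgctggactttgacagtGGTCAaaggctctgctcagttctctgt
Capitals mark GGTCA or its reverse complement. The matches began 135, 128, 75 and 69 bases before the RefSeq start and at position 24 counted from it. This window lies inside the *PGLYRP2* span given above, whose GENCODE start is at 15498956, so it is not upstream of that start. The *BPIFB1* window, chr20:33282964-33283263, likewise lies inside the span given for that gene. RefSeq windows were matched for 6 of the 8 genes, not for *MGP* and *LYZ*, and GGTCA was in 3 of the 6. None of the 6 held the full oestrogen response element (0.0570% of all windows), AGATAA for GATA factors (10.3%), TTTCCCGC or TTTGGCGC for E2F factors (1.63% and 0.652%), TTTGAA of the cell cycle homology region (15.2%) or the TATA box TATAAA (11.5%). CCAAT, present in 34.6% of windows, was in the *SCGB2A1* window only, and the *BPIFB1* window held no motif searched. A full element contains GGTCA, and both strands were searched throughout.

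*MGP* encodes matrix Gla protein, which depends on vitamin K for the carboxylation that lets it bind calcium. It lies at chr12:14880864-14885857 on the minus strand and was by far the most abundant of the 8 genes after treatment. Libraries of sgControl cells held 25173, 21590 and 17711 normalized counts in DMSO and 458454, 406009 and 421532 in abemaciclib. Libraries of knockout cells held 4045, 4286 and 4397 in DMSO and 1855, 1782 and 1900.3 in abemaciclib. The 4 groups did not overlap.

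*MGP* rose 19.9-fold in sgControl cells (log2 4.32 ± 0.10) and fell by 1.20 ± 0.10 on the log2 scale in knockout cells, 2.30-fold. Knockout cells had 5.06-fold less than sgControl in DMSO and 232.3-fold less in abemaciclib. In sgControl cells in abemaciclib this single gene took 92.3% ± 0.38 (SD, n = 3) of the counts of the 8 genes, against 63.4% ± 1.93 in DMSO.

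**Figure D2:**
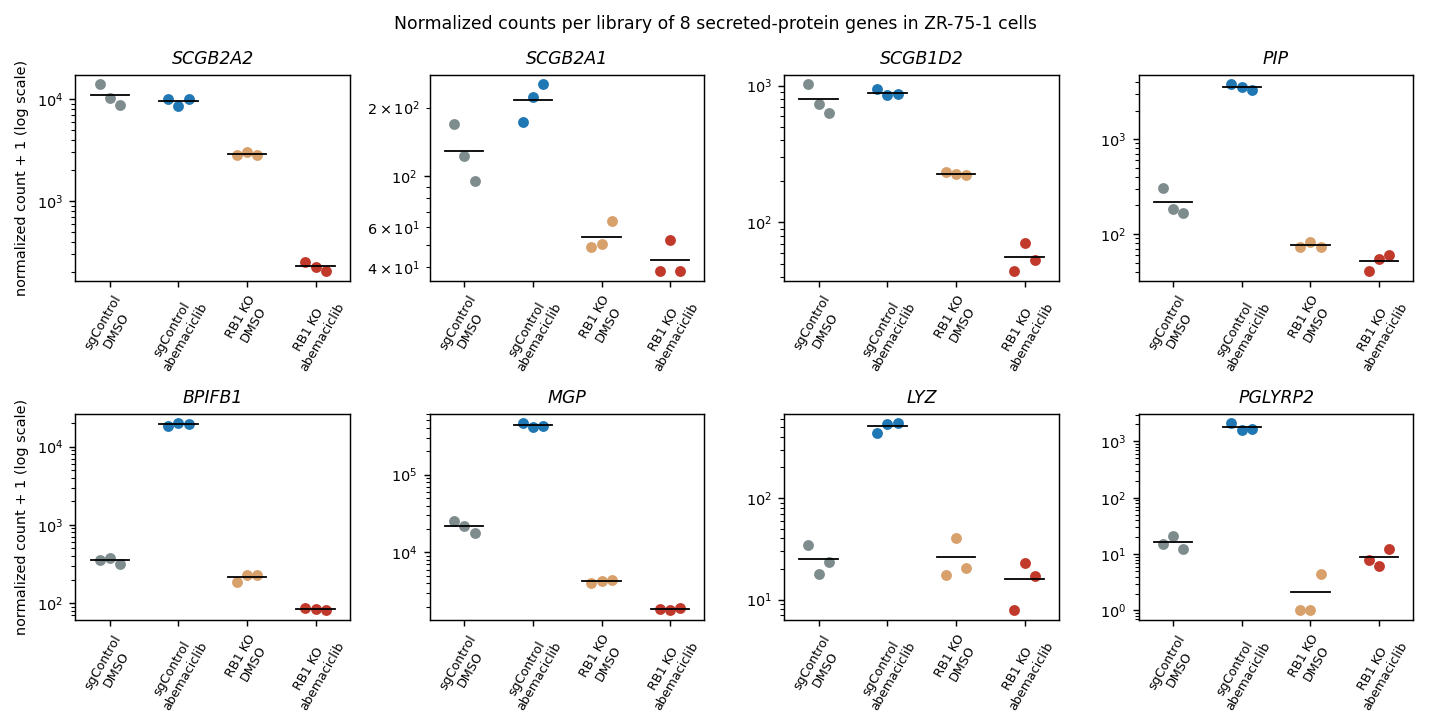
Normalized counts plus 1 (log scale, a separate range in each panel) of the 8 genes in every library, with points for the 3 replicates of each group and a line at their mean. In *PIP*, *BPIFB1*, *MGP*, *LYZ* and *PGLYRP2* the sgControl libraries in abemaciclib stand above all others, whereas for *SCGB2A2* and *SCGB1D2* both sgControl groups lie together and knockout libraries in abemaciclib are lowest.

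Together the 8 genes held 0.0538% to 0.0711% of all counts in sgControl cells in DMSO and 0.755% to 0.800% in abemaciclib. In knockout cells they held 0.0137% to 0.0143% in DMSO and 0.00413% to 0.00432% in abemaciclib. Per kilobase of canonical transcript, *SCGB2A2* was the highest in DMSO, at 21756 normalized counts per kilobase in sgControl and 5714 in knockout cells. *MGP* followed at 13025 and 2571. In normalized counts *MGP* was the higher, with means in DMSO of 21491 in sgControl and 4243 in knockout cells, against 11008 and 2891 for *SCGB2A2*. An order per kilobase holds only if reads came from whole transcripts, on which the sources differ. In sgControl cells in abemaciclib the order was *MGP* (259797), *SCGB2A2* (18700), *BPIFB1* (11775), *PIP* (6122), *SCGB1D2* (1954), *PGLYRP2* (945.2), *SCGB2A1* (414.4) and *LYZ* (339.1), and it was the same in all 3 libraries. Knockout cells in abemaciclib had *MGP* (1119) above *SCGB2A2* (448.3) and *SCGB1D2* (120.9) in each library. *SCGB2A1* and *BPIFB1* in sgControl cells in DMSO, *PIP* and *BPIFB1* in knockout cells in DMSO, and *SCGB2A1* and *PIP* in knockout cells in abemaciclib changed places between replicates.

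Abemaciclib against DMSO in sgControl cells raised 6 of the 8 genes and lowered none of them. By the same rule, an adjusted p below 0.05 in DESeq2, 25.0% of the 22723 genes tested were higher and 24.8% lower. The median log2 fold change was 4.18 over the 8 genes and 0.01 over all genes tested. As the genes were selected partly on this contrast, nothing is read from the count. The 2 genes not called were *SCGB2A2* and *SCGB1D2*.

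Abemaciclib against DMSO in knockout cells lowered 5 of the 8, namely *SCGB2A2*, *SCGB1D2*, *PIP*, *BPIFB1* and *MGP*, and raised *PGLYRP2*, whose value rests on the 3 counts described above. Over the 18546 genes tested, 14.9% were higher and 15.1% lower. The median was −0.98 over the 8 genes and 0.02 over all. Without *PIP* and *PGLYRP2*, whose calls depended on the model, 4 genes were lower.

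The difference between these responses, the interaction, was negative and past the threshold in all 8 genes, with background shares of 20.3% lower and 21.1% higher among 20932 genes. It was −7.16 ± 0.15 for *BPIFB1* and −5.52 ± 0.14 for *MGP*, on the log2 scale. For *LYZ* it was −5.14 ± 0.46, for *PIP* −4.60 ± 0.29 and for *PGLYRP2* −4.19 ± 0.93. The secretoglobins had −3.46 ± 0.20 for *SCGB2A2*, −2.20 ± 0.26 for *SCGB1D2* and −1.10 ± 0.36 for *SCGB2A1*. The *PGLYRP2* value depended on 1 library: without replicate 3 of the knockout group in DMSO, which held the group's only counts, it was −1.79 (adjusted p = 0.368).

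The same interaction arose in different ways. In *PIP*, *BPIFB1*, *MGP* and *LYZ* most of it was the rise in sgControl cells, whose log2 fold changes were 4.03 to 5.79. In *PGLYRP2* the sgControl rise of 6.90 was larger than the interaction, since knockout cells also rose, by 2.71 on few counts. In *SCGB2A2* and *SCGB1D2* most of it was the fall in knockout cells, and in *SCGB2A1* the sgControl rise was the larger component.

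**Figure D3:**
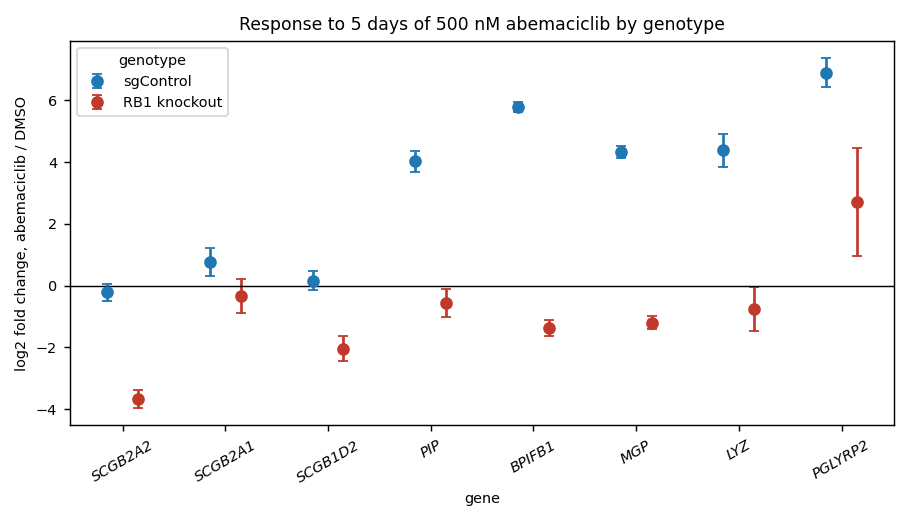
Log2 fold change of abemaciclib against DMSO for each gene in sgControl (blue) and *RB1*-knockout cells (red), as points from the DESeq2 model with 95% intervals from 3 replicates per group. The sgControl values run from −0.22 for *SCGB2A2* to 6.90 for *PGLYRP2*, the knockout values lie below them in every gene, and the wide interval of *PGLYRP2* in knockout cells rests on 3 counts in the untreated group.

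Between genotypes in DMSO, 7 of the 8 genes were lower in knockout cells and none was higher, the exception being *LYZ*. Among 16755 genes tested, 18.2% were lower and 19.2% higher. In abemaciclib all 8 were lower in knockout cells, where 27.4% of 21529 genes were lower and 28.5% higher. The medians over the 8 genes were −1.67 in DMSO and −5.75 in abemaciclib, and those over all genes −0.01 and 0.02. The contrasts share groups with those above and add no independent observation.

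Among the 8 other secretoglobin genes, 4 had any counts. *SCGB3A1*, a secretoglobin of airway and mammary epithelium, was the one called, with a rise of 1.65 ± 0.37 in sgControl cells from a mean of 27.8 ± 9.98 to 86.5 ± 16.1 normalized counts (SD, n = 3). Its knockout means were 7.75 ± 5.15 in DMSO and 9.01 ± 4.41 in abemaciclib, and its interaction was −1.47 ± 0.66 (adjusted p = 0.0583). None of the 12 other lysozyme and peptidoglycan recognition genes was called in any contrast, and at most 2 had enough counts to be tested.

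Other products of milk and glandular secretion moved in both directions. Of 30 such genes, 22 were tested for the interaction, with a median of −1.14. Of these, 12 were lower and 3 higher, beside 20.3% lower and 21.1% higher over all genes tested. *TFF1*, a trefoil peptide of mucous secretions and a classical oestrogen target, had means of 69785 ± 12288 and 411219 ± 28172 normalized counts in sgControl cells in DMSO and abemaciclib, and 15759 ± 1052 and 8669 ± 566.6 in knockout cells. It rose by 2.56 ± 0.11 on the log2 scale in sgControl cells and fell by 0.86 ± 0.11 in knockout cells.

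*CLU*, the secreted chaperone clusterin, rose by 2.93 ± 0.10 in sgControl cells and fell by 0.70 ± 0.10 in knockout cells. *APOD*, a lipocalin of breast cyst fluid, rose by 3.90 ± 0.16 in sgControl cells and had 0.10 ± 0.25 in knockout cells. *MUCL1*, a small breast mucin, rose by 2.70 ± 0.16 in sgControl cells and had −0.46 ± 0.23 in knockout cells. The 3 genes with a positive interaction were *WFDC2* (2.11 ± 0.30), *MUC16* (4.28 ± 1.32) and *MFGE8* (0.52 ± 0.17), and *WFDC2* and *MUC16* were the 2 that fell in sgControl cells.

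Matrix Gla protein needs the vitamin K cycle, and *GGCX*, the carboxylase that modifies it, was 1 of 7 genes that rose in sgControl cells among 11 tested of the 17 in that list, while *GAS6* (−0.20 ± 0.07) and *PROS1* (−0.95 ± 0.39) fell, beside 25.0% higher and 24.8% lower over all genes. Total-count size factors gave 5 higher and 3 lower. *GGCX* rose by 0.73 ± 0.06 in sgControl cells and fell by 0.22 ± 0.07 in knockout cells. Its interaction was −0.95 ± 0.09, and those of *PRRG2* and *PRRG1*, which encode transmembrane Gla proteins, were −0.92 ± 0.18 and −0.30 ± 0.10. *GAS6*, a Gla-containing ligand of TAM receptors, and *PRRG4* had positive interactions of 0.65 ± 0.10 and 0.31 ± 0.11. The list thus had 3 lower and 2 higher among 11 tested, near the shares over all genes of 20.3% and 21.1%, and total-count size factors turned this to 2 lower and 3 higher.

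Secreted proteins enter the endoplasmic reticulum through the signal recognition particle and the Sec61 channel. Of 25 genes of this machinery, 16 rose and 5 fell in sgControl cells, beside 25.0% and 24.8% over all genes tested. In knockout cells 3 rose and 4 fell, near the shares over all genes of 14.9% and 15.1%. The interaction was lower in 11 and higher in 3, beside 20.3% and 21.1% over all genes. Its median was −0.17 and its size was modest. *SSR4*, a subunit of the translocon-associated protein complex, had −1.08 ± 0.18, *SEC62* −0.60 ± 0.09 and *SPCS1*, a signal peptidase subunit, −0.51 ± 0.14. The 3 higher were *SEC61A2* (0.53 ± 0.15), *SRP54* (0.24 ± 0.06) and *SRP72* (0.21 ± 0.07). Total-count size factors, which moved the median interaction of all genes by 0.14, changed the split to 9 lower and 6 higher, and the split of the sgControl response to 8 higher and 6 lower.

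Transcription factors and receptors of the luminal state were examined as 24 genes, of which 23 were tested for the interaction, with a median of −0.41. Of these, 15 were lower and 3 higher, beside 20.3% and 21.1% over all genes tested. *CREB3L1*, a factor that activates secretory pathway genes, rose by 1.00 ± 0.09 in sgControl cells and fell by 0.69 ± 0.10 in knockout cells. *ESR1*, encoding oestrogen receptor alpha, rose by 0.59 ± 0.10 in sgControl cells and fell by 0.39 ± 0.10 in knockout cells. *EHF*, an epithelial ETS factor, rose by 0.88 ± 0.06 and had −0.09 ± 0.06. *PGR*, the progesterone receptor, was among the 3 higher with 0.76 ± 0.15, having risen in both genotypes, by 0.30 ± 0.10 and 1.06 ± 0.10. *STAT5B* (0.32 ± 0.09) and *CEBPB* (0.30 ± 0.10) were the others. Under total-count size factors 11 were lower and 3 higher.

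**Figure D4:**
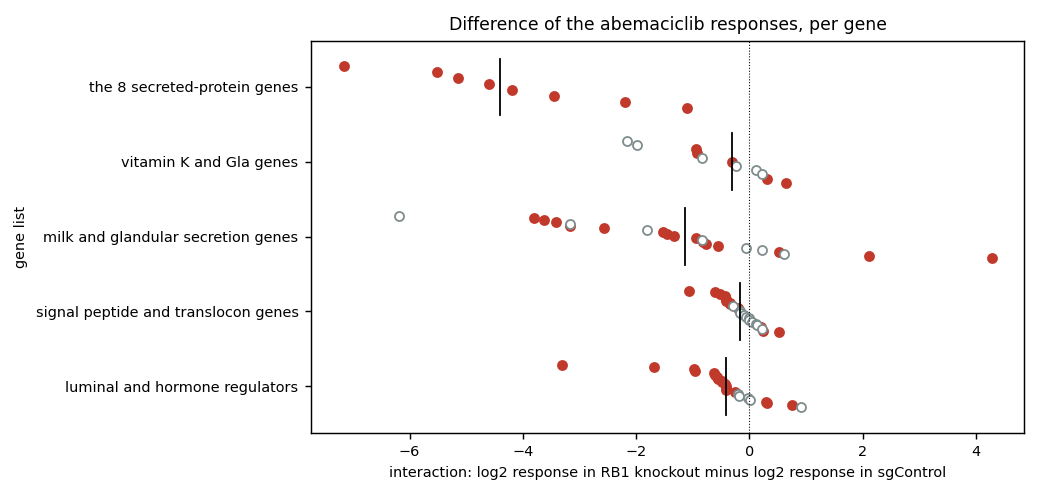
Interaction of abemaciclib and *RB1* knockout on the log2 scale for each tested gene of 5 lists, with filled points past an adjusted p of 0.05 and open points not past it. Vertical lines mark list medians, which are −4.40 for the 8 genes (chosen partly on this quantity), −1.14 for milk and glandular secretion, −0.30 for vitamin K and Gla, −0.41 for regulators and −0.17 for signal peptide and translocon genes.

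Likeness of profile was measured as the root mean square difference of centred log2(normalized count + 1) over the 12 libraries, where 0 is an identical shape, among 11877 genes with a mean of at least 100 normalized counts, the 8 genes themselves left out. *SCGB2A2* and *SCGB1D2* both had *RFLNA* (0.83 and 0.35) and *AZGP1* (1.21 and 0.65) as nearest genes outside the 8, with *ALDH2* (1.23) and *SRARP* (0.65) as the third. *AZGP1*, a secreted zinc-binding glycoprotein often found with PIP, had a log2 fold change of −0.21 ± 0.11 in sgControl cells and fell by 1.55 ± 0.11 in knockout cells. Nearest to *SCGB2A1* were *FURIN* (0.28), *SMIM1* (0.28) and *AKR7A3* (0.29).

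*BPIFB1* and *MGP* both had *A2M*, which encodes a secreted protease inhibitor, as the nearest gene outside the 8 (0.42 and 0.51), and shared the mucin gene *MUC2* (0.75 and 0.84). *CYP4B1* (0.55) was the remaining gene for *BPIFB1* and *AC008268.1* (0.85) for *MGP*. For *PIP* they were *VSTM2L* (0.37), *APOD* (0.41) and *SEC14L2* (0.56), and for *LYZ* *SCUBE1* (0.53), *ELOVL3* (0.58) and *CGNL1* (0.60). For *PGLYRP2* they were *CLDN2* (0.94), *PDZK1* (0.97) and *AC008268.1* (1.17). *A2M*, *MUC2*, *AC008268.1*, *SCUBE1*, *ELOVL3* and *CLDN2* averaged at least 100 normalized counts only in sgControl cells in abemaciclib. They met the filter through that group, so their likeness in the other groups rests on low counts. In knockout cells in DMSO and abemaciclib *A2M* had means of 11.4 and 6.10, against 4243 and 1846 for *MGP*. Within the 8 genes the closest pairs were *BPIFB1* and *MGP* (0.66), *PIP* and *MGP* (0.71), and *SCGB2A2* and *SCGB1D2* (0.72).

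Of the 8 genes, *LYZ*, *MGP* and *BPIFB1* are also markers of other cell types, so those lists were examined without them. Of 8 other myeloid markers *TYROBP* and *AIF1* were at 0 in every library, and the summed level was 39.7 to 43.8 normalized counts in sgControl cells in DMSO and 30.8 to 44.3 in abemaciclib, against 47.4 to 109.3 and 85.7 to 112.7 in knockout cells. Of 7 other fibroblast and smooth muscle markers *COL1A2* and *COL3A1* did not exceed 2.26 in any library. Their summed level, mostly *COL1A1*, was 2141 to 2439 and 2899 to 3108 in sgControl cells and 1922 to 2081 and 2607 to 2722 in knockout cells. *DCN* and *LUM* were higher in sgControl cells in abemaciclib (means of 20.5 and 49.2) than in DMSO (3.21 and 3.26), whereas *PDGFRB* and *MYH11* had lower means there (8.40 and 11.4 against 14.0 and 19.7).

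Of 7 other airway secretory markers *SFTPB* was at 0 throughout and *SCGB1A1* did not exceed 3.40. Their sums were 54.9 to 77.6 and 48.5 to 55.0 in sgControl cells and 94.3 to 124.5 and 43.0 to 65.3 in knockout cells. Basal epithelial markers, 7 genes with *KRT5*, *KRT14* and *TP63* near 0, summed to 890.8 to 1053 and 774.8 to 865.1 in sgControl cells and to 1511 to 1646 and 1289 to 1378 in knockout cells. The part of these small levels in the results was not tested.

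Annotation bears on 4 of the genes. *SCGB2A1* and *SCGB1D2* overlap one long non-coding gene on the opposite strand, *LYZ* another, and *MGP* overlaps *C12orf60*. *C12orf60* had means of 197.0 ± 17.8 and 548.2 ± 25.6 normalized counts in sgControl cells in DMSO and abemaciclib, and 133.3 ± 15.3 and 128.0 ± 5.00 in knockout cells, far below *MGP*. The strand setting of the counting is not stated in the sources used here, so reads of overlapping genes cannot be told apart. The longest run common to the whole transcripts of *SCGB2A2* and *SCGB2A1* was 29 bases. Only reads no longer than that could match both transcripts exactly, and such reads could have been split or dropped.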

How the data were processed

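The authors trimmed reads with BBDuk, aligned them to hg38 with STAR 2.7.5b and counted them per gene with featureCounts 2.0.1 against a GENCODE annotation; the deposited table holds these raw counts for 12 samples, not normalized and not pooled. The labels name a directional whole-transcript kit, whereas the methods of the study give a 3′ kit for RNA sequencing in general, for which a level per kilobase would have no meaning. Strand setting and treatment of multiply aligned reads were not given in the sources used here. Of 60656 rows, 44 without a symbol (0.0% of counts) were left out.

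Groups and replicate numbers were taken from sample titles, which do not say whether replicates were separate cultures. The study describes its RNA sequencing of cell lines as made from 3 independent biological cultures per condition. The p-values measure the spread between these samples. No 2 replicates agreed within sampling noise. Chi-square per gene between replicates was 3.32 to 5.23 in knockout cells in DMSO and 16.6 to 95.3 in the deeper sgControl libraries in DMSO. In abemaciclib it was 5.15 to 16.4 over both genotypes. All groups shared a single estimate of spread per gene, so intervals do not reflect this difference. DESeq2 1.42.0 in R 4.3.3 was fitted once to all genes and 12 samples with a group term, median-of-ratios size factors and no shrinkage. Wald tests were two-sided, with Benjamini–Hochberg adjustment over all genes left by independent filtering and a threshold of 0.05. Errors of fold changes are standard errors, and those of levels standard deviations. The genes and lists were chosen with earlier results of these data known. The study also examined oestrogen response genes after inhibition of CDK4 and CDK6, and names *TFF1* among them. It describes oestrogen receptor levels in its receptor-positive lines as without a major change.

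The rule for named genes took every one of the 8 genes and, from each other list, up to 4 genes with a mean of at least 100 that passed the interaction threshold, by size, with any gene needed to state a count of up to 5. Alternatives were edgeR 4.0.16 quasi-likelihood with TMM, total-count size factors, a filter of 10 counts in 3 samples, only the groups compared, the replicate number as a block, and each library left out. On simulated data of 21983 genes with 200 changed by a log2 value of 2, DESeq2 recovered 99% for the sgControl response and 90% for the interaction, with 27 of 225 and 28 of 208 calls false. Deviations of same-numbered sgControl and knockout samples in abemaciclib had correlations of 0.15, 0.26 and 0.11. Each remaining combination of groups had a value below 0.1, though single values could be larger. Between sgControl in DMSO and knockout in abemaciclib they were 0.37, 0.26 and −0.06. Values for differently numbered samples are not given, so whether the numbers pair samples was not tested. The main model used no pairing. Promoter windows are from RefSeq (GRCh38.p14), and positions, transcript lengths and coding sequences from GENCODE release 44.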

Additional observations from a re-analysis of the deposited data

Results flagged for a closer look

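Of the 8 genes, each had a response to abemaciclib that differed between sgControl and knockout cells in the DESeq2 interaction. So did 52 of the 127 genes of the other lists, of which 16 are named here. Not all of the 127 had enough counts to be tested. On the log2 scale the interaction was −3.46 for *SCGB2A2*, −1.10 for *SCGB2A1*, −2.20 for *SCGB1D2*, −4.60 for *PIP*, −7.16 for *BPIFB1*, −5.52 for *MGP*, −5.14 for *LYZ* and −4.19 for *PGLYRP2*. Over all genes tested 21.1% were higher and 20.3% lower, and the 8 genes had been chosen with such values known.

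Among genes of milk and glandular secretion it was −3.80 for *APOD*, −3.63 for *CLU*, −3.42 for *TFF1* and −3.16 for *MUCL1*. The regulators had −1.69 for *CREB3L1*, −0.98 for *ESR1*, −0.97 for *EHF* and 0.76 for *PGR*. In the vitamin K list it was −0.95 for *GGCX*, −0.92 for *PRRG2*, 0.65 for *GAS6* and 0.31 for *PRRG4*. In the translocon list it was −1.08 for *SSR4*, −0.60 for *SEC62*, −0.51 for *SPCS1* and 0.53 for *SEC61A2*. These 16 were, within each list, the 4 genes called with the largest interaction in either direction at a mean of at least 100 normalized counts. Groups of 3 are too small for a check of single outlying samples.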

How the results depend on the processing

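Under every alternative run, the number of the 8 genes called stayed at 6 or 7 for the sgControl response, 4 to 6 for the knockout response, 7 or 8 for the interaction, 7 for the genotypes in DMSO and 8 in abemaciclib. Of 671 values of single genes under an alternative, 649 stayed on the same side of the threshold, 17 were no longer past it and 5 came to be past it; none changed direction while called. The exceptions were *SCGB2A2* and *SCGB1D2* in sgControl cells, *PIP*, *LYZ* and *PGLYRP2* in knockout cells, and the *PGLYRP2* interaction, with the values given above. DESeq2 gave no adjusted p for *PGLYRP2* in knockout cells when only the groups compared were fitted.

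With the replicate number as a block, 6, 4, 8, 7 and 8 of the 8 genes were called for the sgControl response, the knockout response, the interaction and the genotypes in DMSO and in abemaciclib; *PIP* and *PGLYRP2* in knockout cells were the calls lost. Between genotypes in abemaciclib the block changed no call of the 8 genes. Total-count size factors moved the median of all genes by −0.13 for the sgControl response, 0.14 for the interaction and 0.11 between genotypes in abemaciclib. With them 5467 genes were higher and 3098 lower in the interaction, against 4417 and 4251, 4532 and 6779 in the sgControl response, against 5675 and 5630, and 6995 and 4820 between genotypes in abemaciclib, against 6133 and 5906. Counts limit *PGLYRP2* and *LYZ* in knockout cells.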

Other observations

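The surroundings of the 8 genes were listed as the 36 other genes that start within 100 kb of one of them. Of these, 13 were tested for the interaction, 3 being higher and 7 lower, beside 21.1% and 20.3% over all genes tested. Near the secretoglobin genes, *INCENP*, which encodes a subunit of the chromosomal passenger complex, had means of 4380 and 1431 normalized counts in sgControl cells in DMSO and abemaciclib against 4639 and 4507 without *RB1*, an interaction of 1.57 ± 0.14. *ASRGL1*, an asparaginase gene, had 1020 and 272.5 in sgControl and 949.8 and 826.0 in knockout cells (1.69 ± 0.12). Both had interactions opposite in sign to those of the secretoglobins beside them.

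Near *MGP*, *ERP27*, which encodes a chaperone of the endoplasmic reticulum, had 349.7 and 1781 in sgControl cells in DMSO and abemaciclib against 289.2 and 401.4 without *RB1*, an interaction of −1.88 ± 0.19. *C12orf60* (−1.54 ± 0.19), *ARHGDIB* (−0.996 ± 0.10) and *WBP11* (−0.20 ± 0.06) were the other 3 there. Near *PGLYRP2*, *CYP4F22*, *WIZ* and *AKAP8L* had −3.73 ± 0.79, −0.80 ± 0.09 and −0.39 ± 0.10, and near *LYZ*, *YEATS4* had 0.44 ± 0.11. The *CYP4F22* value rests on low counts, with means of 6.33 and 55.4 in sgControl cells in DMSO and abemaciclib and 5.83 and 3.88 without *RB1*. No gene near *PIP* or *BPIFB1* had enough counts to be tested.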
